A study of Mus musculus with 19 samples.

Results

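Etv1, Etv4, Etv5, Egr1, Egr2, Egr3, Ier2, Ier3 and Phlda1 are genes whose transcription rises when growth factor receptors signal through ERK. They were taken by symbol from the expression table, which held all 9 of them among 22958 genes, together with the SOX3 and SOX9 binding sites that the authors assigned to them. RNA was measured in 4 libraries of mouse glial progenitor cells (GPC) and 3 libraries of glial cells, called glia here, both derived from embryonic stem cells. Per the labels, the stem cells were differentiated with 0.1 μM all-trans retinoic acid, cells carrying the A2B5 antigen were sorted magnetically on day 8, and these progenitors were grown with EGF and FGF2 at 10 ng/ml. The labels attach this text to both groups without saying how the glia were made or which growth factors they received, and no genotype or treatment separates the groups. The binding sites come from chromatin immunoprecipitation (ChIP-seq) of SOX3 (2 samples), SOX9 (3) and NFIA (2) in GPC, with 1 peak list for each factor.

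EGF and FGF bind receptor tyrosine kinases that activate RAS, the RAF and MEK kinases and then ERK. ERK phosphorylates ternary complex factors of the ETS family, which sit with SRF on promoters of immediate early genes such as those of the EGR family, and the response begins within minutes without new protein synthesis. The PEA3 group of ETS factors, encoded by Etv1, Etv4 and Etv5, is held down by the repressor CIC until ERK inactivates it, and in the developing nervous system these factors are known as readouts of FGF signalling. In bulk RNA, fewer cells of a type and less RNA per cell cannot be told apart.

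Reads counted in genes ranged from 12836998 to 22439837 in GPC and from 6897294 to 17369367 in glia. Separate cultures are not named in the labels, and the p-values speak only for the variation among these libraries, which may be technical. Summed RPKM (reads scaled by gene length and library size) of 7 myelin and maturing oligodendrocyte markers was 95.6 to 118 in GPC and 1617 to 2279 in glia, and that of 8 astrocyte markers was 435 to 537 and 6588 to 8606. All 7 of the former rose, and of the latter 6 rose while Aldh1l1 and Slc1a3 fell. Rises and falls of markers are by the test described below, which called 35.2% of all tested genes lower in glia and 35.2% higher. Counts near those shares are not a result about a cell type. Of 5 oligodendrocyte precursor markers 3 fell and 2 rose, and of 5 neural progenitor markers 2 fell and 2 rose. All 4 proliferation markers fell, from a sum of 272 to 387 RPKM to one of 60.1 to 76.9 RPKM. All 4 mesenchyme markers rose, from 77.4 to 88.5 RPKM to 356 to 438 RPKM, and of 6 neuronal markers 4 rose and 1 fell. The part of these shifts in cell make-up in the results was not tested. GPC replicate 3 was the deepest library and stood apart from the other 3 GPC libraries, at 24.6 to 28.4 chi-square units per gene from each of them, where those 3 were 2.00 to 3.46 from each other. All 4 proliferation markers were lowest in it among GPC libraries, and 6 of 7 maturing oligodendrocyte markers were highest. Values without it are given beside the genes and counts that it moved most.

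Of the 9 genes, 7 fell in glia, 1 rose and 1 passed the test in neither direction. The test was edgeR's quasi-likelihood test, two-sided, with a threshold of 0.05 on the p-value after Benjamini-Hochberg adjustment. Over all 13588 genes tested, 35.2% were called lower in glia, 35.2% higher and 70.4% either way, so 8 called genes of 9 is near the background. The median log2 change, glia minus GPC, was -3.13 over the 9 genes and 0.00 over all tested genes. The value for the 9 genes is that of Egr2 and was -2.46 without GPC replicate 3. Etv4, Etv5, Egr1, Egr2 and Egr3 each fell by at least 8-fold, a size reached by 0.773% of tested genes with all libraries. Without GPC replicate 3, Egr2 had a log2 change of -2.46 and only 4 of these genes reached that size. All 7 falls were of at least 2-fold, as were falls in 9.24% of tested genes. Libraries of the groups were fully separated for 8 of the 9 genes and for 69.1% of all tested genes. In 7 of the 9 every glia library lay below every GPC library (32.1% of tested genes) and in 1 above (36.9%). The counts of 7 falling and 1 rising gene were the same without GPC replicate 3.

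**Figure D1:**
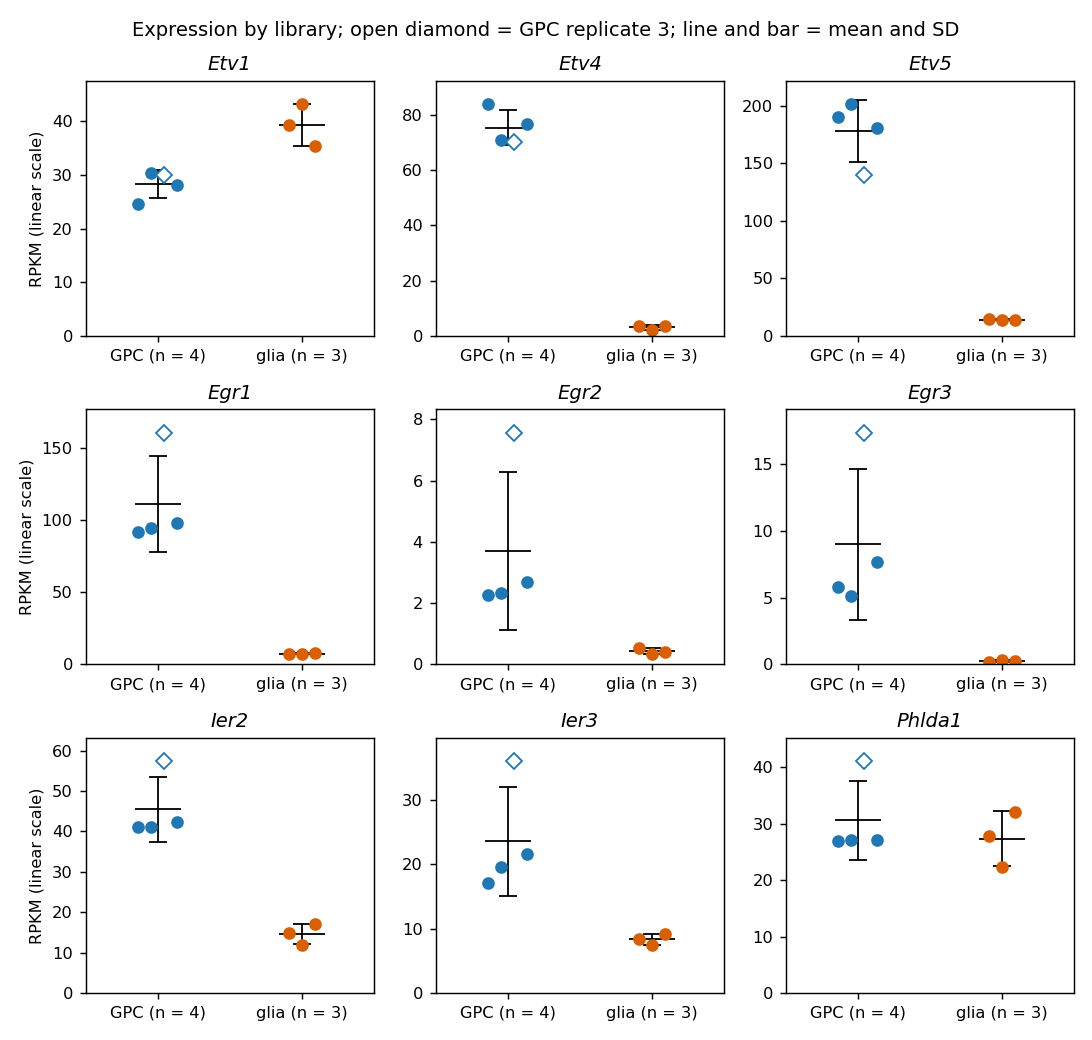
RPKM of each gene (vertical axes, linear from 0) in 4 GPC and 3 glia libraries, with the mean and SD as line and bar and GPC replicate 3 as an open diamond. Etv1 alone lies higher in every glia library than in every GPC library, 7 genes lie lower, and Phlda1 overlaps; the open diamond tops the GPC libraries for Egr1, Egr2, Egr3, Ier2, Ier3 and Phlda1.

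Etv5 was the most abundant of these genes in GPC. It encodes an ETS transcription factor of the PEA3 group that is induced by FGF. GPC replicates 1 to 4 gave 190.1, 201, 139.5 and 181 RPKM, and glia replicates 1 to 3 gave 14.6, 13.5 and 14.1 RPKM. The groups were far apart, and GPC replicate 3 was the lowest of the progenitor libraries, at 0.731 times the mean of the other 3. Mean levels were 178 ± 26.98 RPKM (SD, n = 4) in GPC and 14.1 ± 0.535 RPKM (n = 3) in glia, a 12.6-fold difference of means. The log2 change was -3.68 ± 0.13 (SE), with an adjusted p of 9.31e-09 by edgeR's quasi-likelihood test, and -3.78 without GPC replicate 3.

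Etv4, the second PEA3 gene, fell further. Its GPC values were 83.8, 71.0, 70.1 and 76.6 RPKM and its glia values 3.56, 2.20 and 3.73 RPKM. The GPC libraries lay close together, with a coefficient of variation of 8.37%, and the lowest glia value came from the shallowest library, glia replicate 2. The means of 75.4 ± 6.31 RPKM (SD, n = 4) and 3.16 ± 0.836 RPKM (n = 3) differed 23.9-fold, and the log2 change was -4.53 ± 0.15 (SE; adjusted p = 5.77e-09, edgeR's quasi-likelihood test).

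Etv1, the third PEA3 gene, went the other way. GPC libraries held 24.6, 30.3, 30.1 and 28.2 RPKM, and glia libraries 39.4, 43.2 and 35.4 RPKM. Every glia value lay above every GPC value, though the step was small next to the falls of its relatives. Means of 28.3 ± 2.65 RPKM (SD, n = 4) and 39.3 ± 3.91 RPKM (n = 3) gave a 1.39-fold rise, a log2 change of 0.43 ± 0.09 (SE; adjusted p = 0.00198, edgeR's quasi-likelihood test). Etv1 rose by 0.36 to 0.50 on the log2 scale in the 14 alternative fits, which include 2 other scalings of the libraries, with adjusted p from 0.000181 to 0.0102. GPC replicate 3 lay between the other GPC libraries for Etv1.

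The make-up of the PEA3 group therefore differed between the groups. Etv1 supplied 8.23%, 10.0%, 12.5% and 9.87% of the summed RPKM of the 3 genes in GPC and 68.4%, 73.3% and 66.5% in glia. Etv5 supplied 62.9% ± 3.46 (SD, n = 4) in GPC and 24.95% ± 1.78 (n = 3) in glia, and Etv4 26.9% ± 2.50 and 5.64% ± 1.70. The 3 genes summed to 281.6 ± 28.9 RPKM in progenitors and to 56.5 ± 3.01 RPKM in glia. The log2 ratio of Etv1 to Etv5 was -2.95 to -2.21 in GPC and 1.33 to 1.67 in glia, and that of Etv1 to Etv4 was -1.77 to -1.22 and 3.25 to 4.29. Etv4 also lost ground to Etv5, with a log2 ratio of -1.50 to -0.99 in GPC and -2.62 to -1.92 in glia. None of these ranges overlap, and each reached the smallest p that an exact two-sided permutation test of 4 against 3 libraries allows, 0.0571, which cannot pass 0.05 (0.0571 adjusted over the 4 ratios tested).

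**Figure D2:**
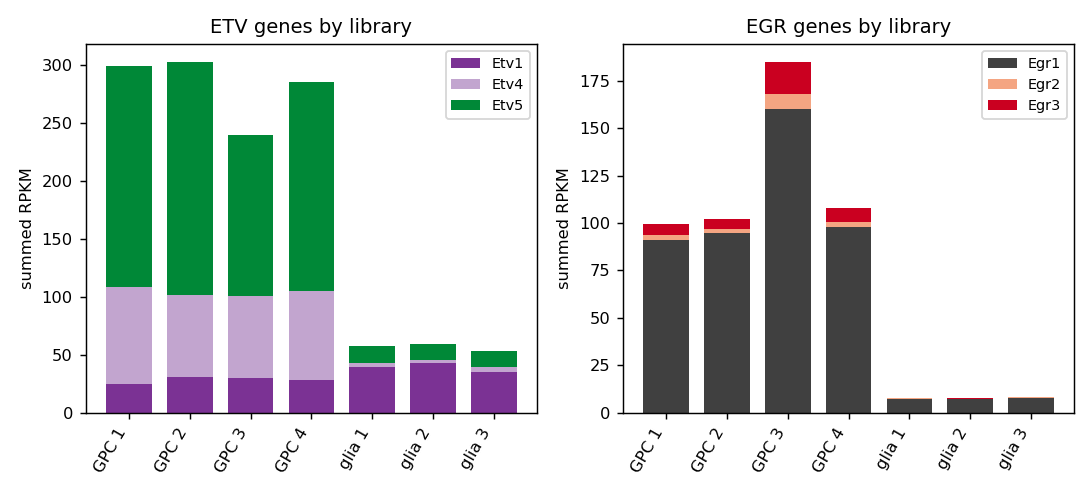
Summed RPKM of Etv1, Etv4 and Etv5 (left) and of Egr1, Egr2 and Egr3 (right) in each GPC and glia library, as stacked bars from 0. The PEA3 sum is mostly Etv5 in GPC and mostly Etv1 in glia; Egr1 makes up 86.5% to 92.7% of the EGR sum in every library, and the EGR bar is tallest in GPC replicate 3.

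Promoter sequence is shown for members whose RefSeq windows (assembly GRCm38.p6) were searched. These were Etv1, Etv5, Egr2 and Ier3, with 10 windows in all. The search of members left out windows on 1 chromosome, so a member without a window here may have one in RefSeq. Shares over all windows were taken without leaving that chromosome out. The stretches are the 250 bases before an annotated start, 5′ to 3′ on the gene's strand, with capitals marking matches to the letters searched. Etv5 (chr16:22438369-22438618, minus strand) and Etv1 (chr12:38783461-38783710, plus strand) show a falling and a rising member of 1 family:
Etv5: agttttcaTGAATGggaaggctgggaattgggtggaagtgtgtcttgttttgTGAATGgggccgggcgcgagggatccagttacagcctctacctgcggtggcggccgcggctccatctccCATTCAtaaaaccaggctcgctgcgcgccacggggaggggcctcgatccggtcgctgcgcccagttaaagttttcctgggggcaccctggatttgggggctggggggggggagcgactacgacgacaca
Etv1: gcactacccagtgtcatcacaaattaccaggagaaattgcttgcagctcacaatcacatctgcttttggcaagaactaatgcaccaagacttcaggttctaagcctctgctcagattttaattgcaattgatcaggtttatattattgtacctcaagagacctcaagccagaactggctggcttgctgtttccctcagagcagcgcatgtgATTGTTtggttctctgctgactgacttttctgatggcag
The Etv5 stretch holds TGAATG, the core letters of CIC sites, 3 times, at bases -242, -198 and, on the other strand, -129 counted from the start. TGAATG stands at least once, on either strand, in 12.7% of all 32851 windows of 300 bases. The share of windows with 3 matches was not computed. The longer CIC forms TGAATGAA, TGAATGGA, TCAATGAA and TCAATGGA were in none of the 10 windows, and each is in 0.670% to 1.30% of all windows. The Etv1 stretch holds AACAAT, a SOX core, once on the other strand at -39, as do 10.7% of all windows. The other Etv1 and Etv5 windows held none of the letters searched, which also included CCGGAA (an ETS core, in 14.9% of all windows), TGACG (a CRE core, 20.8%), the EGR sites GCGTGGGCG (0.612%) and GCGGGGGCG (2.91%), the NFI palindrome (0.0365%) and the CArG box of SRF (1.63%). A match is a description of letters and not a site of binding.

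Egr1 was the second most abundant of the genes in GPC and the leading EGR gene in both groups. It encodes a zinc finger transcription factor of the immediate early response. GPC replicates 1 to 4 gave 91.3, 94.6, 160.3 and 97.8 RPKM, and the glia libraries 7.18, 7.02 and 7.64 RPKM. GPC replicate 3 exceeded the mean of the other GPC libraries 1.69-fold, and the 3 glia libraries were nearly level. The means of 111 ± 33.0 RPKM (SD, n = 4) and 7.28 ± 0.319 RPKM (n = 3) gave a log2 change of -3.96 ± 0.24 (SE; adjusted p = 1.78e-06, edgeR's quasi-likelihood test), or -3.72 without GPC replicate 3.

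Egr3, an EGR factor induced by growth factors and by neuronal activity, had the largest fall of the 9 genes. Its GPC values were 5.84, 5.10, 17.4 and 7.68 RPKM, and its glia values 0.164, 0.307 and 0.284 RPKM. The glia values rest on 4, 3 and 7 reads, against 95 to 554 reads in the GPC libraries, so the size of the fall is loosely fixed. The log2 change was -5.27 ± 0.71 (SE), with a 95% interval of -6.91 to -3.62 (adjusted p = 0.000235, edgeR's quasi-likelihood test), and -4.69 without GPC replicate 3, which held 2.80 times the mean of the other GPC libraries. The log2 ratio of Egr1 to Egr3 was 3.21 to 4.21 in GPC and 4.52 to 5.45 in glia, without overlap (exact two-sided permutation p = 0.0571, the smallest that 4 against 3 libraries allow). The difference of mean log2 ratios was 1.14, and 0.955 without GPC replicate 3.

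Egr2, an EGR factor of hindbrain patterning and of myelinating Schwann cells, was low throughout. GPC libraries gave 2.27, 2.32, 7.56 and 2.68 RPKM and glia libraries 0.530, 0.342 and 0.407 RPKM. GPC replicate 3 stood 3.12-fold above the mean of the other progenitor libraries, the widest gap among the 9 genes, and glia replicate 2 rested on 7 reads. The log2 change was -3.13 ± 0.60 (SE; adjusted p = 0.0018, edgeR's quasi-likelihood test), and -2.46 without GPC replicate 3, so the fold moved by over 1.5 times with that library while the fall remained.

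Among the 4 members searched, only Egr2 had SRF letters in its windows. The promoters of the other members, Egr1 among them, were not searched. The CArG box was in 4 of its 5 windows, in 2 versions, and in 1.63% of all windows. Windows of neighbouring Egr2 starts overlap and share the same CCATATATGG, so the 4 windows hold only 2 separate boxes. The stretch chr10:67537619-67537868 (plus strand) carries one version between a pair of CRE cores and is shown with the Ier3 stretch chr17:35821463-35821712 (plus strand), a smaller fall, for contrast:
Egr2: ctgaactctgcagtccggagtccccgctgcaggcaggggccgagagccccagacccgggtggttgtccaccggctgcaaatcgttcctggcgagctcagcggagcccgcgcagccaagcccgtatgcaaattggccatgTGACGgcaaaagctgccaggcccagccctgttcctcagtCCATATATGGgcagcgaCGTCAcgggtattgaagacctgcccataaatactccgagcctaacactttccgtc
Ier3: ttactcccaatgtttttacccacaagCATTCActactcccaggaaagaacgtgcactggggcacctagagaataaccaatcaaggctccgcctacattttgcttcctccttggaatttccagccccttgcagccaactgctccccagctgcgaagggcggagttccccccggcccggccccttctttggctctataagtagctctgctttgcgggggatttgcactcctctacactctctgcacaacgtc
In the Egr2 stretch the CArG box CCATATATGG starts at -72 and reads the same on both strands, TGACG starts at -111, and its reverse complement CGTCA starts at -55. The window of another Egr2 start holds the box CCTTTTTTGG at -72 and CCGGAA 3 times, 2 of them overlapping on opposite strands. The Ier3 stretch holds 1 TGAATG on the other strand at -224 and no other match.

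Ier2 and Ier3 fell less than the EGR genes. Ier2, a nuclear immediate early protein, gave 41.2, 41.1, 57.4 and 42.2 RPKM in GPC, against 14.9, 11.9 and 17.0 RPKM in glia. The other 3 GPC libraries had an SD of 0.629 RPKM, and GPC replicate 3 was 1.38 times their mean. Its log2 change was -1.65 ± 0.16 (SE; adjusted p = 1.17e-05, edgeR's quasi-likelihood test), or -1.50 without GPC replicate 3.

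Ier3, a stress and growth factor inducible gene linked to cell survival, gave 17.2, 19.6, 36.0 and 21.5 RPKM in GPC, against 8.42, 7.37 and 9.12 RPKM in glia. GPC replicate 3 was again the highest, at 1.85 times the mean of the others, and all glia values lay below all GPC values. The log2 change was -1.53 ± 0.27 (SE; adjusted p = 0.000918, edgeR's quasi-likelihood test), or -1.22 without that library.

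Phlda1, which encodes a pleckstrin homology-like domain protein and is widely used as a readout of ERK output, was the exception. GPC replicates 1, 2 and 4 held 27.004, 27.1 and 27.1 RPKM and GPC replicate 3 held 41.1 RPKM, while glia held 27.8, 22.3 and 32.0 RPKM. The groups overlapped. The log2 change was -0.18 ± 0.19 (SE; adjusted p = 0.395, edgeR's quasi-likelihood test), with a 95% interval of -0.61 to 0.24. Without GPC replicate 3 the estimate was 0.01 (adjusted p = 0.915). The interval does not reach the -1.53 of Ier3, the smallest fall among the other genes, and a change of a size inside it remains possible.

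**Figure D3:**
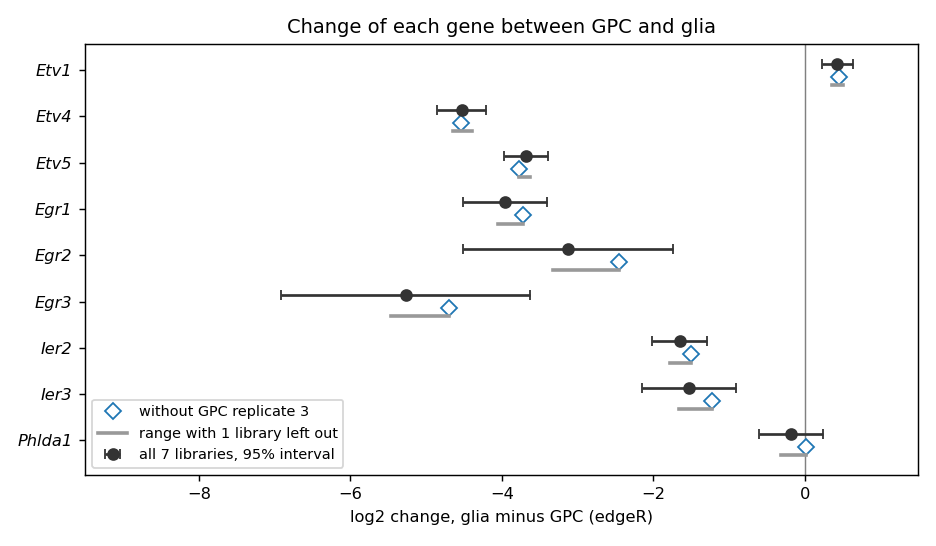
Log2 change of each gene, glia minus GPC (horizontal axis), with its 95% interval over all 7 libraries (black), the value without GPC replicate 3 (open diamond) and the range when any 1 library is left out (grey). Etv4 and Etv5 have narrow intervals; those of Egr2 and Egr3 are wide, and Phlda1 spans 0.

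GPC replicate 3 did not shift the 9 genes alike. It was the highest GPC library for all 3 EGR genes, Ier2, Ier3 and Phlda1, which makes 6 of 9 against 34.5% of tested genes, and the lowest for Etv4 and Etv5 (2 of 9 against 39.3%). Etv4 was lowest by a small step, 70.1 against 71.0 RPKM, and Etv1 lay between the others. In 5 of the 9 genes it reached at least 1.5 times the mean of the other 3 GPC libraries, as in 7.10% of tested genes. Among 9 tested genes of a list of other immediate early genes it was the highest for 8, and among 10 feedback inhibitors of the pathway it was the lowest for 6. That library also had the lowest summed level of proliferation markers, 272 RPKM where the GPC libraries reached 387 RPKM. Of 6 neuronal markers it was the highest for 2, Tubb3 and Rbfox3, which is near the 34.5% of tested genes, and between the others for 4. All 5 oligodendrocyte precursor markers were lowest in it, and of 8 astrocyte markers 5 were highest and 1 was lowest. The part of its depth, its cell make-up or its handling in these values was not tested.

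The order of levels differed between the groups. In GPC the mean RPKM ran from Etv5 through Egr1, Etv4, Ier2, Phlda1, Etv1, Ier3 and Egr3 to Egr2. Library ranges of neighbours overlapped for Etv5 with Egr1, and along the run from Phlda1 to Etv1, Ier3, Egr3 and Egr2. All of these but Phlda1 with Etv1 rest on values of GPC replicate 3. In glia the order was Etv1, Phlda1, Ier2, Etv5, Ier3, Egr1, Etv4, Egr2 and Egr3, with overlap of Ier2 with Etv5 and of Ier3 with Egr1. Etv1 thus moved from sixth to first, and Egr1 from second to sixth.

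Most other genes of the pathway changed far less than these. Of 79 further pathway genes in 8 lists, all in the table, 71 had enough reads to be tested, 38 fell and 13 rose, with a median log2 change of -0.29. Each list's counts stand against 35.2% of all tested genes called lower and 35.2% called higher, and a share near those is not a result about the list. Without GPC replicate 3, 41 fell and 18 rose. The 10 feedback inhibitors stood lowest, with 9 lower, none higher and a median of -2.09. Dusp6, the phosphatase that turns off ERK, gave 158.8 ± 14.6 RPKM (SD, n = 4) in GPC and 2.36 ± 0.361 RPKM (n = 3) in glia, a log2 change of -6.05 ± 0.12 (SE). Il17rd, the 1 feedback inhibitor that passed in neither direction, had a log2 change of -0.08 and was named after its value was seen.

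Upstream of the targets the list medians were small and the changes of single genes mixed. Of 11 receptors and adaptors 3 fell and 4 rose (median log2 change 0.14), and without GPC replicate 3 the counts were 3 and 6. The FGF receptor gene Fgfr3 had a log2 change of -1.104 and Fgfr2 rose by 1.31, from 8.62 ± 0.785 to 22.1 ± 0.583 RPKM (SD). Of 14 genes of the RAS, RAF, MEK, ERK and RSK proteins 6 fell and 2 rose (median -0.17). The kinase gene Rps6ka3 (RSK2) fell by 0.87 and the scaffold gene Ksr1 rose by 0.50. Without GPC replicate 3, 4 of these 14 genes rose, and only 1 did when GPC replicates 2 or 4 or glia replicates 1 or 3 were left out.

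Of 8 nuclear effectors 7 fell and none rose, mostly by small steps (median -0.32). The ternary complex factor gene Elk3 fell the most, from 20.3 ± 1.46 to 7.93 ± 0.571 RPKM (SD, n = 4 and 3), a log2 change of -1.39 ± 0.08 (SE).

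Genes whose products restrain ETV or EGR factors were also measured. Of 9, 5 fell and 2 rose (median -0.23). Nab2, an EGR-induced corepressor that binds EGR proteins, fell from 60.5 ± 5.98 to 15.9 ± 0.977 RPKM (SD), a log2 change of -1.98 ± 0.10 (SE). Atxn1, whose product works with CIC, rose by 2.603 ± 0.26 on the log2 scale from a low level of 0.442 to 1.01 RPKM in GPC to 3.71 to 4.27 RPKM in glia. Cic itself, named after its value was seen, had 37.2 ± 2.57 RPKM (SD, n = 4) in progenitors and 40.8 ± 2.05 RPKM (n = 3) in glia, with a log2 change of 0.11 (adjusted p = 0.226, edgeR's quasi-likelihood test). Only 1 of these genes rose without each of GPC replicates 1, 2 and 4 and each glia library, and 3 fell without glia replicate 1.

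Other ETS factors mostly moved little. Of 11, 7 were tested, 4 fell and 2 rose (median -0.25). Ets1, the largest fall, changed by -0.86 ± 0.08 (SE) and the low Elf4, the largest rise, by 1.06 ± 0.20.

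Immediate early genes outside the EGR and IER families did not share one direction. Of 11, 9 were tested, 2 fell and 3 rose (median 0.20). Fos, the AP-1 subunit, rose from 9.85 to 13.0 RPKM in GPC to 49.1 to 53.0 RPKM in glia, a log2 change of 2.19 ± 0.10 (SE; adjusted p = 4.53e-08, edgeR's quasi-likelihood test). Arc, a gene best known from active neurons, fell from 11.5 ± 1.31 to 0.627 ± 0.263 RPKM (SD), by 4.11 on the log2 scale. Only 1 of these genes rose when GPC replicates 2 or 4 or glia replicates 1 or 2 were left out, and 4 did without GPC replicate 3. Of 5 close relatives of the members, 3 were tested and 2 fell, led by Ier5l at -1.30 ± 0.16 (SE), while Egr4 had 56 reads in all GPC libraries and 7 in all glia libraries and was not tested.

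**Figure D4:**
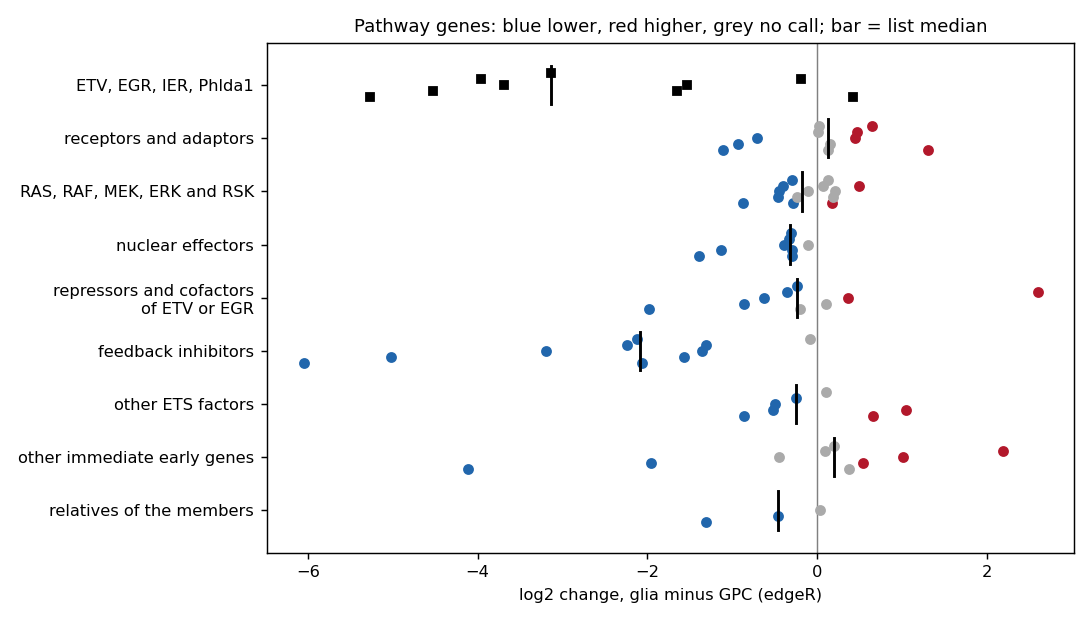
Log2 change, glia minus GPC, of each tested gene in 8 pathway lists and of the 9 ETV, EGR, IER and Phlda1 genes (black squares), with list medians as vertical bars; blue is lower, red higher and grey neither by adjusted p. The feedback inhibitors have the lowest list median (-2.09) and the medians of the other 7 pathway lists lie between -0.45 and 0.20, with single genes such as Arc (-4.11) and Atxn1 (2.603) far out.

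By likeness of pattern, the nearest gene to each was found as the highest Pearson correlation of log2 CPM (reads scaled by library size) over the 7 libraries, a description in which the GPC to glia step dominates. It was Rmnd5a for Etv1 (r = 0.992), N4bp3 for Etv4 (r = 0.999) and Kcnc1 for Etv5 (r = 0.9998). For Egr1, Egr2 and Egr3 it was A630055G03Rik (0.9997), Agfg2 (0.996) and Npl (0.998), and for Ier2, Ier3 and Phlda1 it was Trim27 (0.999), Heatr3 (0.995) and Grhpr (0.981). The number of genes with r above 0.99 was 640 for Etv5, 480 for Etv4, 226 for Egr1, 105 for Ier2, 39 for Egr3, 22 for Egr2, 12 for Ier3, 6 for Etv1 and 0 for Phlda1. Kcnc1, like Etv5, was lowest among GPC libraries in replicate 3, at 19.3 RPKM against 22.3 to 22.8 RPKM. Grhpr, like Phlda1, was highest there, at 63.0 RPKM against 38.4 to 41.6 RPKM. Both were picked by correlation over these same libraries, so a shared place of GPC replicate 3 follows from the choice. That library was lowest of the GPC libraries for 39.3% of tested genes and highest for 34.5%.

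SOX9 or SOX3 peaks were assigned to 3 of the 9 genes. SOX9 had 6 of its 2943 peaks at Etv5, Egr2 and Phlda1, and SOX3 had 1 of its 1367 peaks, at Etv5. An assigned SOX9 peak was found for 11.2% of all tested genes and an assigned SOX3 peak for 5.65%. Each factor has 1 list for all its GPC samples, in mm9 coordinates, so no spread between samples can be given. Whether samples were pooled before calling is not stated, and whether a peak lies in an exon or an intron was not analysed here. None was assigned to Etv1, Etv4, Egr1, Egr3, Ier2 or Ier3.

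Etv5 had 4 assigned SOX9 peaks, a number that 0.258% of tested genes reached. The first, chr16:22428809-22429409, was centred 10.7 kb downstream of the start and contained the 234 bp SOX3 peak chr16:22428995-22429228. Peaks of both factors were assigned to 2.77% of tested genes. Of all SOX9 peaks 10.8% overlapped a SOX3 peak, and of all SOX3 peaks 21.9% overlapped a SOX9 peak. The other 3 lay upstream, centred 69.4, 69.6 and 89.9 kb from the start, at chr16:22508858-22509458, chr16:22509049-22509649 and chr16:22529429-22530029. The first pair of these overlap each other, so the 4 peaks mark 3 separate places. The next protein-coding gene upstream in RefSeq order is Dgkg, with 1.31 ± 0.0937 RPKM (SD, n = 4) in progenitors and 0.466 ± 0.0300 RPKM (n = 3) in glia. Dgkg was itself called lower in glia, with a log2 change of -1.53 ± 0.15 (SE; adjusted p = 7.43e-06, edgeR's quasi-likelihood test). Whether the upstream peaks lie inside Dgkg was not examined. The assignment to Etv5 is the authors' and does not show which gene a site acts on.

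Egr2 had 1 SOX9 peak, chr10:67001236-67001836, centred 919 bp downstream of its start, and an NFIA peak whose centre lay 35 bp upstream of the start implied by the authors' distance. The NFIA peak, chr10:67000432-67000732, had a score of 15 where the median over all NFIA peaks was 16, and the 2 centres were 0.954 kb apart, without overlap. RefSeq gives Egr2 several starts in another assembly, so the promoter stretch printed above may not be the one next to these peaks. The same holds for Etv5, which has 2 windows in that assembly, and its peaks. Phlda1 had 1 SOX9 peak, chr10:110933245-110933845, 9.80 kb upstream of its start, with the nearest NFIA centre 3.76 kb away. None of the 6 SOX9 peaks overlapped an NFIA peak, and 28.4% of all SOX9 peaks did. The SOX3 peak overlapped none either, and 7.39% of all SOX3 peaks did. So few peaks, some of which overlap each other, cannot show a difference from those shares. No NFIA peak lay within 100 kb of the Etv5 start, and the nearest was 109 kb upstream.

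**Figure D5:**
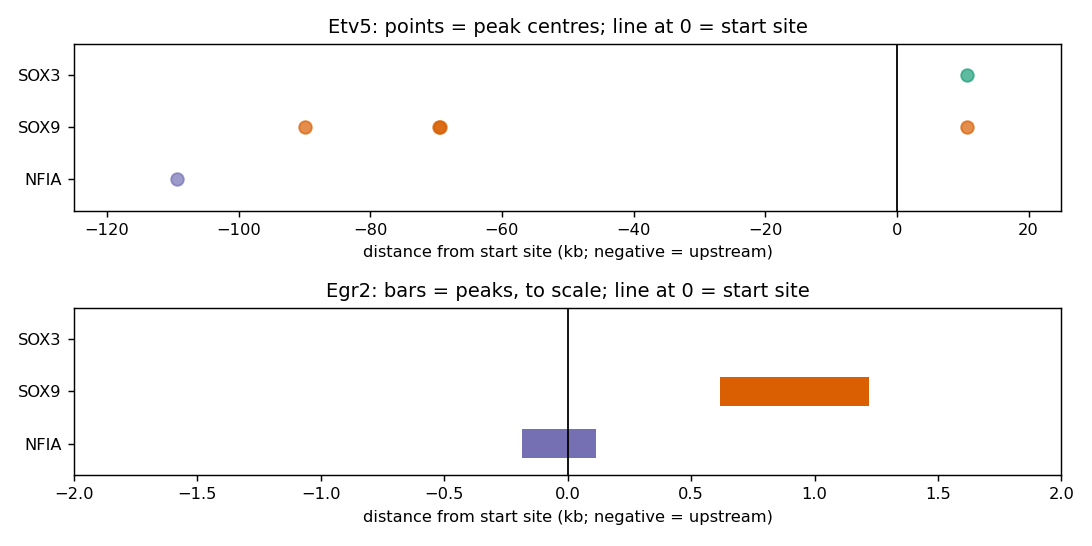
Peaks near Etv5 (upper, points at peak centres) and Egr2 (lower, bars to scale) by distance from the start site in kb, negative upstream, in 1 row each for SOX3, SOX9 and NFIA. At Etv5 the SOX3 and SOX9 peaks coincide 10.7 kb downstream, and at Egr2 the NFIA bar covers the start while the SOX9 bar lies beyond it.

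Among the genes with peaks, the log2 changes were -3.68 for Etv5, -3.13 for Egr2 and -0.18 for Phlda1, which was not called. The genes without an assigned peak had log2 changes of -4.53 (Etv4), -3.96 (Egr1), -5.27 (Egr3), -1.65 (Ier2), -1.53 (Ier3) and 0.43 (Etv1). A link between peaks and changes was not tested. Among the 79 other pathway genes, Dusp4 had 2 SOX9 peaks and 1 SOX3 peak, the nearest 127 kb from its start. Ets1 had 2 and 3, and Dusp6 had none of either. Peaks were also assigned to other pathway genes, such as Fgfr2, which rose, and Cic, which passed in neither direction. These genes were picked here after their values were seen.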

How the data were processed

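The deposited counts are raw reads per gene, and the authors' RPKM values are scaled by gene length and by a read total given per library, per the file headers. The submitters' processing notes name mm9, MACS and MACS2. Aligner, counter and strand setting: not given in the sources used here. Overlapping and antisense genes may therefore share reads. Peak distances to start sites are the authors' own, and NFIA peaks carry a deposited score whose meaning is not stated.

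The counts went into edgeR 4.0.16 under R 4.3.3 (TMM scaling, filterByExpr, robust glmQLFit and glmQLFTest, glia against GPC), adjusted over 13588 genes, two-sided. The standard error is the log2 change over the square root of F. RPKM served for levels and ratios, with exact permutation tests in scipy 1.17.1. DESeq2 1.42.0, limma 3.58.1 (voom), other scalings and filters, a replicate block and each library left out in turn were the alternatives. The scripts were tested on simulated data. Peaks overlapped with at least 1 bp shared. Named genes were all 9 members, the called gene with the largest rise and fall in each pathway list, and the gene most like each member. The members and lists were chosen with earlier results of these data known. Input and H3K27Ac samples were not used here.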

Additional observations from a re-analysis of the deposited data

Results flagged for a closer look

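GPC replicate 3 lay far above the other 3 GPC libraries for 4 of the 9 genes. The gap to the next library, as a share of the whole range of the 4 values, was 0.906 for Egr1, 0.922 for Egr2, 0.931 for Ier2 and 0.991 for Phlda1, each above Dixon's 95% critical value for 4 samples. Chance alone marks about 1 group in 20, but GPC replicate 3 stood apart over all genes, so that rate is not the background here. The share of all tested genes above the critical value was not computed, so these flags are not particular to the 9 genes. The shares for Egr3 (0.790) and Ier3 (0.768) stayed below that value, with the same library on top. Glia groups of 3 were not examined this way.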

How the results depend on the processing

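The 7 falls and 1 rise among the 9 genes held in each of the 14 alternative fits (DESeq2, limma-voom, 2 scalings, 2 filters, the replicate block and 7 libraries left out). Phlda1, not called in any of them, turned from -0.18 to 0.0133 without GPC replicate 3, and ran from -0.314 to 0.0133 with 1 library left out. With the replicate number as a block the counts were also 7 and 1, Egr2 gave -3.17 and Phlda1 -0.23 (adjusted p = 0.0800, edgeR's quasi-likelihood test). The block lowered the rising genes of other immediate early genes from 3 to 1 and the falling and rising genes of the repressors and cofactors from 5 and 2 to 3 and 1. Same-numbered libraries had deviations correlated at -0.02, 0.14 and 0.07, and not every library correlated best with its own number. Correlations this few and weak cannot settle whether same-numbered libraries were paired. For RAS to RSK genes the number rising was 4 with upper quartile scaling and 1 without the filter on low counts, against 2. For the repressors and cofactors it was 1 without that filter and 1 with limma-voom, against 2. With 1 library left out, rising genes numbered 1 to 4 for RAS to RSK, 1 to 2 for repressors and cofactors (falling 3 to 6) and 1 to 4 for other immediate early genes. The causes were not tested. Paralog ratios and peak counts kept their direction and number, respectively, under each alternative tried. Depth limits Egr3 in glia, with 3 to 7 reads a library.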
